A study of Caenorhabditis elegans with 6 samples.

Results

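Metallothioneins, ferritins and the cdr genes of Caenorhabditis elegans are described here. The worms were fed either bacteria that silence the yolk protein gene vit-5 or control bacteria. The 8 genes mtl-1, mtl-2, ftn-1, ftn-2, cdr-1, cdr-2, cdr-4 and cdr-6 were chosen by name among the 45132 genes listed for every library. There were 3 libraries after vit-5 RNAi and 3 after control L4440 RNAi, each from whole N2 worms of wild-type genotype, in which RNA interference by feeding silences the gene whose double-stranded RNA the bacteria make. Worms of both groups received the RNAi bacteria as larvae, were moved to OP50 bacteria as young adults and were collected 5 days old. Each value is in FPKM, which counts sequenced fragments relative to transcript length and to the size of the library. Both metallothioneins and ftn-2 were among the abundant transcripts of these worms. After vit-5 RNAi, mtl-1 averaged 2.1 times and cdr-2 1.59 times their control levels, with no overlap between the groups, as for 30.8% of all tested genes. The median log2 difference over all tested genes was 0.34, and after scaling that takes out most of this shift the cdr-2 difference went down to 0.30 (95% interval -0.01 to 0.61) from 0.66. No member passed the threshold of the test across all genes, and no other tested gene did, vit-5 included.

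Metallothioneins are small cysteine-rich proteins that bind zinc, copper and cadmium. In the worm they are made chiefly in the intestine and are induced by cadmium, and mtl-1 is widely used as a readout of the insulin-pathway factor DAF-16. Ferritins form hollow shells that store iron. The worm has an intestinal form, ftn-1, which is induced by iron and held down by the hypoxia factor HIF-1 when iron is scarce, and a form in many tissues, ftn-2. The cdr genes (cadmium responsive) were named for cdr-1, which cadmium induces strongly in the intestine. Intestinal cells are also the source of the vitellogenins that vit-5 RNAi targets.

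All positions are on the WBcel235 build, and 7 of the 8 genes lie on chromosome V. The gene mtl-1 (gene ID 179060) occupies V from 6691371 to 6691863 on the minus strand, with 2 exons and 75 codons. Its relative mtl-2 (179899) lies at V from 14018270 to 14018673, also on the minus strand with 2 exons, and has 63 codons. The ferritin gene ftn-1 (179138) lies at V from 7546468 to 7547579, and ftn-2 (171934) on chromosome I from 3680180 to 3680927. Both ferritin genes are on the minus strand with 3 exons, and each has 170 codons. The gene cdr-1 (180064) stands alone at V from 15921309 to 15922820 on the plus strand. The other 3 members fall in a cluster on the minus strand, with cdr-4 (259654) from 12407366 to 12408625, cdr-6 (179703) from 12412487 to 12413701 and cdr-2 (183779) from 12414656 to 12415709. The 4 cdr members have 5 or 6 exons and 277 or 278 codons. No strand setting is known for the counting, but 0 annotated genes overlap any of the 8 members.

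The target check came first. The vit-5 transcript stood at 116, 51.6 and 22.8 FPKM in the vit-5 RNAi libraries, against 2335, 1396 and 1573 FPKM in the control libraries. All vit-5 RNAi values lay below all control values, with p = 0.1 by exact 2-sided permutation; with 3 libraries in each group no smaller p is possible. Its close copies vit-3 and vit-4 averaged 32.3 and 23.8 FPKM after vit-5 RNAi and 691 and 828 FPKM in controls, and reads may have been shared between the 3 genes. Low values clustered weakly near whole fragments, which put the depth roughly between 17200000 and 20400000 fragments per library. Ribosomal RNA genes took 0.209% to 2.68% of the FPKM sum in the vit-5 RNAi libraries and 0.450% to 1.95% in the control libraries. The 14 larval collagen and molting markers summed to 225, 399 and 1645 FPKM in vit-5 RNAi replicates 1 to 3, against 181, 1022 and 1210 FPKM in control replicates 1 to 3, so libraries of both groups stood apart in them. Among tissue markers, all 11 intestine, 10 oocyte and germline and 8 muscle genes and 7 of 8 neuron genes reached the filter, while 7 of 8 sperm genes stayed under 1 FPKM in every library. The labels do not say whether replicates were separate cultures, so each p-value rests on how far these 3 libraries of a group scattered, and that scatter may be technical. In whole worms fewer cells of a type and less RNA per cell cannot be told apart.

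The 8 genes spanned a wide range of levels. After vit-5 RNAi the order of mean FPKM was mtl-1 (752), ftn-2 (467), mtl-2 (299), cdr-6 (107), cdr-2 (98.8), cdr-4 (55.1), ftn-1 (45.6) and cdr-1 (5.07). In control worms it was ftn-2 (442), mtl-1 (358), mtl-2 (211), cdr-6 (101), cdr-2 (62.3), cdr-4 (37.9), ftn-1 (26.6) and cdr-1 (3.66). Only the place of mtl-1 and ftn-2 differed between the orders. In vit-5 RNAi worms mtl-1 exceeded ftn-2 in all 3 libraries with ranges apart, and in control worms the ranges of these genes overlapped. Among neighbours in the order, the ranges of ftn-2 and mtl-2, of cdr-6 and cdr-2, and of cdr-4 and ftn-1 overlapped in vit-5 RNAi worms, and those of cdr-4 and ftn-1 also overlapped in control worms. Among the 12908 genes that reached 1 FPKM in at least 3 libraries, mtl-1 ranked between 212 and 675 from the top over the 6 libraries, ftn-2 between 309 and 426 and mtl-2 between 417 and 948. At the other end cdr-1 ranked between 8539 and 10930. The transcripts of mtl-1 and mtl-2 are short, at 373 and 347 bases, and no source used here says how the FPKM treated short transcripts, so their levels relative to longer genes are approximate.

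**Figure D1:**
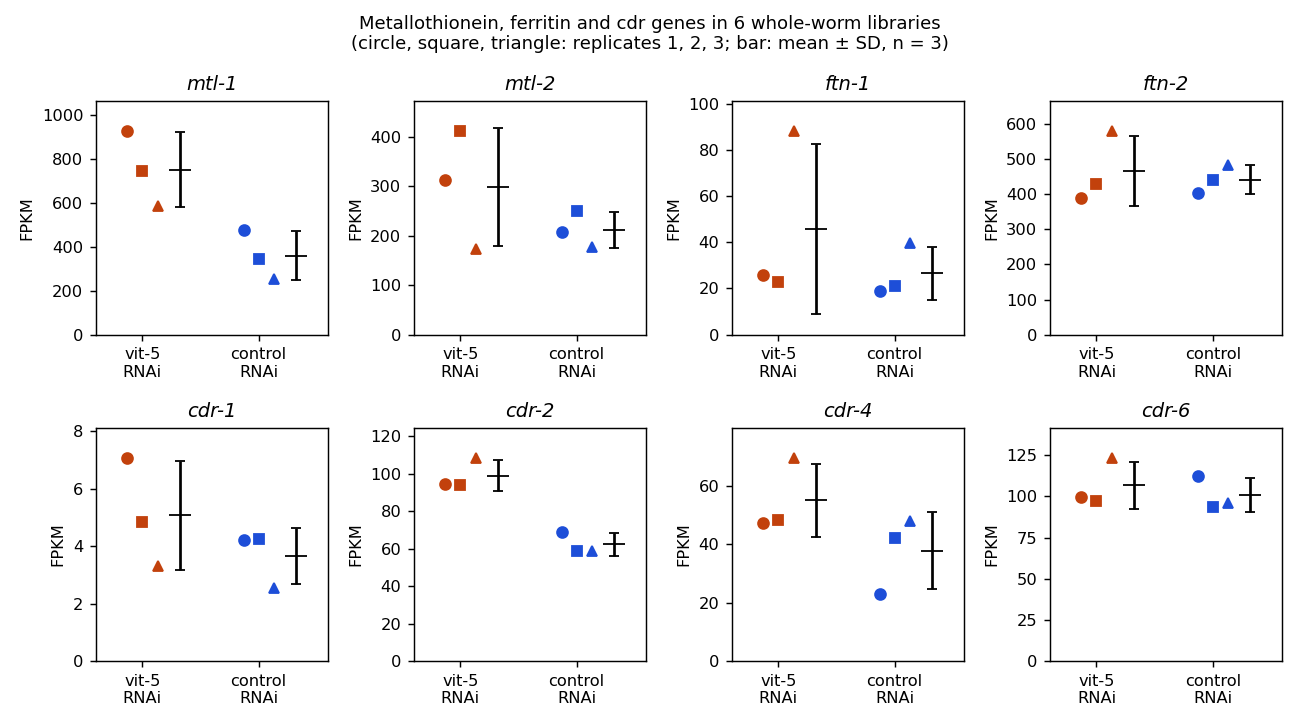
FPKM (linear axes from 0) of each of the 8 genes in the 3 vit-5 RNAi and 3 control RNAi libraries, with symbols for replicates 1, 2 and 3 and the mean ± SD beside them. The groups are separate for mtl-1 and cdr-2, where the lowest vit-5 RNAi values are 585 and 93.9 FPKM and the highest control values 476 and 69.2 FPKM, and overlap for the other 6.

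The metallothionein mtl-1 showed the biggest difference of the 8 in means. It had 926, 744 and 585 FPKM in vit-5 RNAi replicates 1, 2 and 3, against 476, 343 and 255 FPKM in control replicates 1, 2 and 3. The groups did not overlap, and in both groups replicate 1 was the highest and replicate 3 the lowest. The means were 752 ± 171 FPKM after vit-5 RNAi and 358 ± 112 FPKM in controls (SD, n = 3 each). On the scale of log2(FPKM + 1) the difference, vit-5 RNAi minus control, was 1.09 (SE 0.25, 95% interval 0.51 to 1.67), with a limma p of 0.00247 before and 0.122 after adjustment over all genes. The exact 2-sided permutation p of the FPKM values was 0.1.

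For mtl-2, the second metallothionein, the vit-5 RNAi libraries held 312, 411 and 172 FPKM and the control libraries 207, 249 and 177 FPKM. Vit-5 RNAi replicates 1 and 2 were above all controls, while replicate 3 was the lowest of all 6 libraries. The means were 299 ± 120 FPKM after vit-5 RNAi and 211 ± 36.3 FPKM in controls (SD, n = 3 each), and the log2 difference was 0.42 (SE 0.30, 95% interval -0.27 to 1.11, limma adjusted p 0.377). Leaving out vit-5 RNAi replicate 2 gave 0.15, and leaving out replicate 3 of that group gave 0.77. Added together, the metallothioneins reached 1239, 1155 and 758 FPKM after vit-5 RNAi, against 684, 593 and 432 FPKM in controls. All 3 sums after vit-5 RNAi were the higher ones (exact 2-sided permutation p 0.1). After the median-of-ratios scaling described below the difference of 481 FPKM was 279 scaled FPKM, the groups overlapped and the exact permutation p was 0.3.

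Ferritin transcripts were dominated by ftn-2, which made up 91.9% ± 4.41 of the ferritin FPKM after vit-5 RNAi and 94.4% ± 1.78 in controls (SD, n = 3 each). Its values were 391, 430 and 580 FPKM in vit-5 RNAi libraries and 403, 440 and 484 FPKM in control libraries. The highest and the lowest value both came from the vit-5 RNAi group, so its range enclosed that of the controls. The log2 difference was 0.06 (SE 0.18, 95% interval -0.34 to 0.47, limma adjusted p 0.842), and it turned to -0.30 when libraries were rescaled as described below.

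The iron-induced ftn-1 was set apart by a single library. It had 25.7, 22.97 and 88.2 FPKM in vit-5 RNAi replicates 1, 2 and 3, against 19.03, 20.9 and 39.8 FPKM in control replicates 1, 2 and 3. Replicate 3 was the highest library within each group. The other 2 vit-5 RNAi values lay inside the range of the 3 controls, and above control replicates 1 and 2. The log2 difference of 0.56 (SE 0.50, 95% interval -0.60 to 1.72, limma adjusted p 0.484) became -0.048 without vit-5 RNAi replicate 3. The within-group SD of log2(FPKM + 1) was 0.84 for ftn-1, higher than for 96.2% of tested genes, against 0.23 for ftn-2 and a median of 0.29 over all tested genes. Vit-5 RNAi replicate 3 was also the library richest in ribosomal RNA and in larval collagen and molting markers of the 6, and the part of either in the ftn-1 value was not tested. Summed ferritin came to 416, 453 and 668 FPKM after vit-5 RNAi, against 422, 461 and 524 FPKM in controls, with an exact 2-sided permutation p of 0.9.

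Of the cdr genes, cdr-2 differed with the least scatter. Its values were 94.2, 93.9 and 108 FPKM in the vit-5 RNAi libraries, against 69.2, 58.9 and 58.8 FPKM in the control libraries. The lowest value after vit-5 RNAi exceeded the highest control value. The means were 98.8 ± 8.19 FPKM after vit-5 RNAi and 62.3 ± 5.95 FPKM in controls (SD, n = 3 each). The log2 difference was 0.66 (SE 0.15, 95% interval 0.30 to 1.01), with a limma p of 0.00253 before and 0.122 after adjustment. Its within-group SD of 0.12 on the log2 scale was lower than that of all but 6.70% of tested genes.

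The neighbouring gene cdr-6, at 99.6, 97.2 and 123.1 FPKM after vit-5 RNAi, was close to its 112, 93.3 and 95.9 FPKM in controls. These ranges overlapped, with 1 vit-5 RNAi library above all controls. The log2 difference was 0.08 (SE 0.16, 95% interval -0.29 to 0.45, limma adjusted p 0.766). For cdr-4 the vit-5 RNAi libraries held 47.4, 48.5 and 69.6 FPKM and the control libraries 23.1, 42.4 and 48.2 FPKM. Control replicate 1 was far below the other 5 libraries, and a single control value exceeded the lowest vit-5 RNAi value. The log2 difference was 0.57 (SE 0.29, 95% interval -0.10 to 1.25, limma adjusted p 0.239), and it was 0.26 without control replicate 1. The scarce cdr-1, whose product is a membrane protein of lysosomes, had 7.06, 4.86 and 3.30 FPKM after vit-5 RNAi, against 4.20, 4.25 and 2.53 FPKM in controls. Vit-5 RNAi replicates 1 and 2 were above all controls and replicate 3 was inside their range. The log2 difference was 0.36 (SE 0.30, 95% interval -0.33 to 1.05, limma adjusted p 0.453), and it was 0.13 without vit-5 RNAi replicate 1.

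The cluster gave levels that differed sharply over a short stretch of chromosome V. Over 10012 bases, cdr-4, hrg-2, cdr-7, cdr-6, cdr-2 and cdr-3 follow each other in the same direction, and 954 bases separate cdr-6 from cdr-2. The high genes cdr-6 and cdr-2 lay beside cdr-3, which was listed at 0 in all 6 libraries, and cdr-7, which ranged from 5.54 to 6.73 FPKM after vit-5 RNAi and from 4.81 to 6.92 FPKM in controls. The gene hrg-2, a heme-responsive gene between cdr-4 and cdr-7 named here for its place, stayed at or under 0.340 FPKM in every library. Of these 3 other genes only cdr-7 reached the filter (log2 difference 0.07, limma adjusted p 0.858). No source used here says how fragments that could come from more than a single similar cdr gene were counted. No gene was matched under the name cdr-5, so no values are given under that name.

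**Figure D2:**
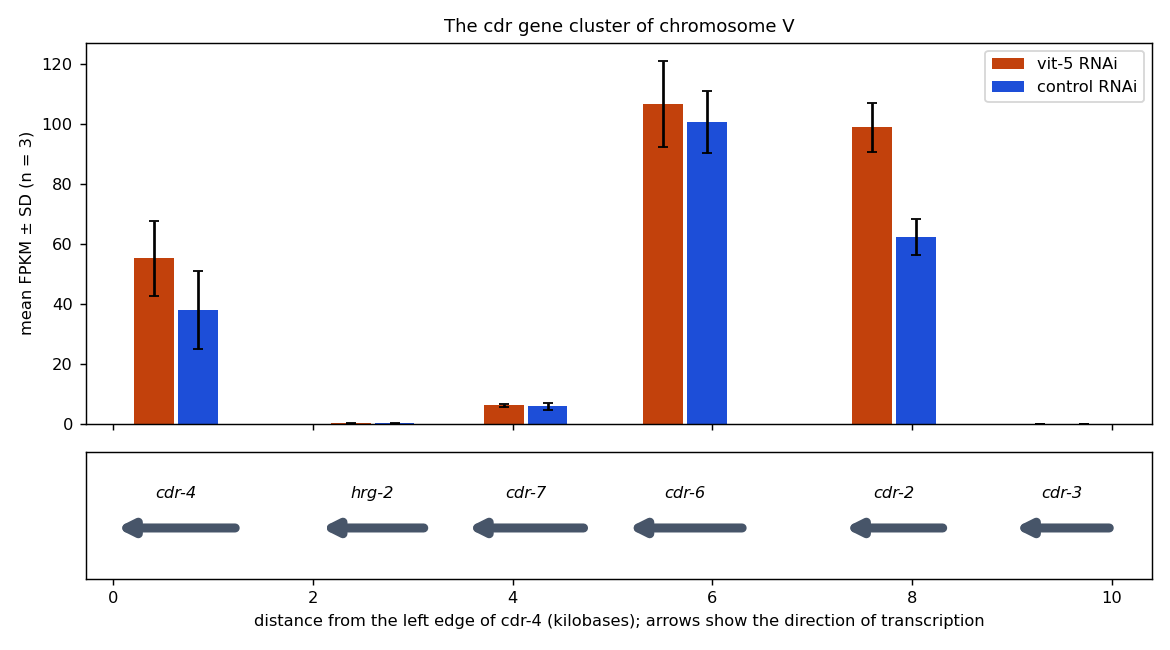
Mean FPKM ± SD (n = 3, bars from 0) of the 6 genes of the chromosome V cluster in vit-5 RNAi and control RNAi libraries, above a map of the genes drawn to scale as distance from the left edge of cdr-4 in kilobases. The tall bars belong to cdr-6, cdr-2 and cdr-4, with cdr-7 near 6.12 and 5.82 FPKM and hrg-2 and cdr-3 at or close to 0.

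The test across all genes asked whether these differences exceeded the spread between replicates. With limma on log2(FPKM + 1), 0 of the 8 members passed an adjusted p of 0.05, and 0 of the 12908 tested genes did (0%). Even the silenced vit-5, with a log2 difference of -5.03, had a limma adjusted p of 0.0552. Its copies vit-3 and vit-4 had a limma adjusted p of 0.122 each. The members' adjusted p-values ran from 0.122 to 0.842. Before adjustment 2 members had a limma p under 0.05, mtl-1 and cdr-2, both higher after vit-5 RNAi, where 26.2% of all tested genes were higher at that level and 0.906% lower. Likewise 2 of the 8 members were separate between groups and higher after vit-5 RNAi, against 30.8% of all tested genes, and 0 were separate and lower, against 3.15%. Both member counts are near the background. All 8 members had a log2 difference above 0, with a median of 0.49, but the median over all tested genes was itself 0.34.

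Rescaling each library by the median of its gene-wise ratios takes that shift out and leaves a median of 0.03 over all tested genes. After it, mtl-1 stood at 792, 678 and 511 scaled FPKM in vit-5 RNAi libraries, against 490, 440 and 280 in control libraries, still without overlap. Its log2 difference was then 0.73 (95% interval 0.12 to 1.34, limma p 0.0255 before and 0.195 after adjustment), and 9.23% of all tested genes were higher at an unadjusted p under 0.05. For cdr-2 the scaled values were 80.6, 85.6 and 94.5 after vit-5 RNAi, against 71.1, 75.6 and 64.6 in controls, also without overlap. The cdr-2 log2 difference of 0.30 had an interval of -0.01 to 0.61. The share of all tested genes without overlap was not computed on this scale. The values for cdr-4, ftn-1, cdr-1 and mtl-2 were 0.22, 0.21, 0.06 and 0.06. Those for ftn-2 and cdr-6 were -0.30 and -0.28, below 0 where they had been 0.06 and 0.08. The median of the 8 members was 0.13 on this scale.

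**Figure D3:**
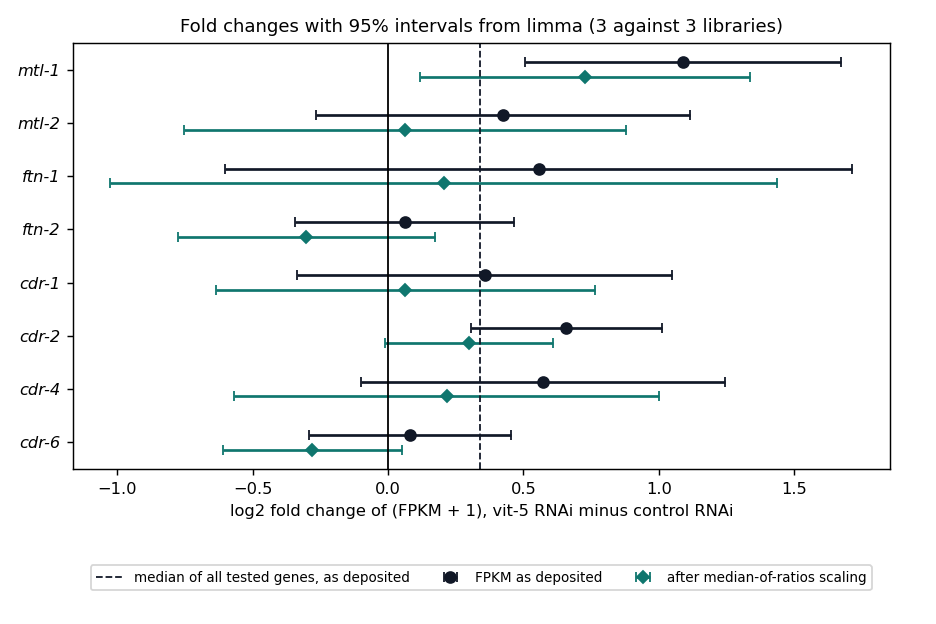
Log2 fold change of FPKM + 1, vit-5 RNAi minus control RNAi, with 95% limma intervals for each gene, from the values as deposited (circles) and after median-of-ratios scaling (diamonds). The dashed line marks the median of all tested genes at 0.34, and the mtl-1 interval lies above 0 on both scales, at 0.51 to 1.67 and 0.12 to 1.34.

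Ratios of members within a library do not depend on how that library was scaled. The ratio of mtl-1 to mtl-2 was 2.96, 1.81 and 3.39 in vit-5 RNAi replicates 1 to 3, against 2.296, 1.38 and 1.44 in control replicates 1 to 3. A single control value lay above the lowest vit-5 RNAi value, so the groups overlapped. The difference in log2 ratio was 0.67 (vit-5 RNAi 1.40 ± 0.48, control 0.73 ± 0.41, SD, n = 3 each; exact 2-sided permutation p 0.2). For ftn-2 over ftn-1 the ratio was 15.2, 18.7 and 6.58 after vit-5 RNAi, against 21.2, 21.04 and 12.1 in controls. Replicate 3 held the lowest ratio in each group, and the exact 2-sided permutation p of the log2 ratio was 0.5.

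The ratio of the neighbours cdr-2 and cdr-6, a pair chosen after their values were seen, varied little within groups. The ratio of cdr-2 to cdr-6 was 0.946, 0.966 and 0.880 in the vit-5 RNAi libraries, against 0.615, 0.631 and 0.614 in the control libraries. The groups did not overlap, and the log2 ratio averaged -0.10 ± 0.07 after vit-5 RNAi and -0.69 ± 0.02 in controls (SD, n = 3 each). The difference of 0.59 is a description, and its permutation p is not read as a test, given how the pair was chosen. As a share of the 4 cdr members' FPKM, cdr-6 made up 40.1% ± 0.343 after vit-5 RNAi and 49.1% ± 4.06 in controls, and cdr-2 37.3% ± 1.51 after vit-5 RNAi and 30.5% ± 2.34 in controls (SD, n = 3 each). The sum of the 4 was 248, 244 and 304 FPKM in vit-5 RNAi libraries, against 209, 199 and 205 FPKM in control libraries, without overlap (exact 2-sided permutation p 0.1). That difference of 61.3 FPKM shrank to 1.67 scaled FPKM after median-of-ratios scaling, with overlapping groups and an exact permutation p of 1.

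**Figure D4:**
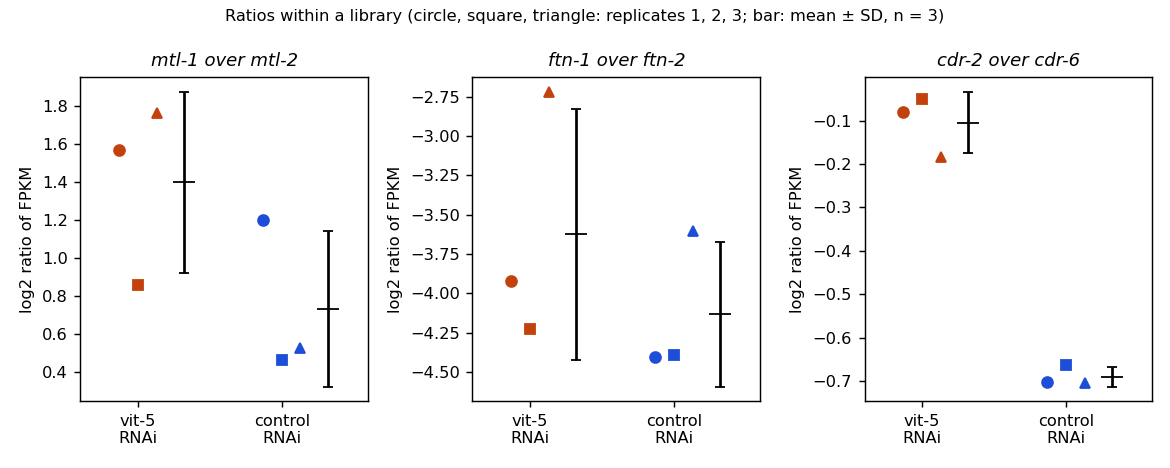
Log2 ratio of FPKM within each library for mtl-1 over mtl-2, ftn-1 over ftn-2 and cdr-2 over cdr-6, in 3 vit-5 RNAi and 3 control RNAi libraries, with the mean ± SD. The groups are apart for cdr-2 over cdr-6, at means of -0.10 and -0.69, and overlap for the other ratios.

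Within groups the members followed differing patterns over libraries. The values of mtl-1, mtl-2 and cdr-1 were lowest in replicate 3 of each group, whereas those of ftn-1, ftn-2 and cdr-4 were highest in replicate 3 of each group. The closest pair of members was ftn-2 and cdr-6, whose profiles, centred on each gene's mean, differed by a root-mean-square of 0.17 log2 units over the 6 libraries. The most distant was mtl-2 and ftn-1, at 1.07. The mean of 12 tested larval collagen and molting markers varied alongside, at -1.11, -0.15 and 1.39 log2 units around its own mean in vit-5 RNAi replicates 1 to 3 and -1.41, 0.55 and 0.73 in control replicates 1 to 3. The collagen gene rol-6 alone ran from 3.15 to 202 FPKM after vit-5 RNAi and from 3.41 to 117 FPKM in controls. Thus ftn-1, ftn-2 and cdr-4 were highest in the library of each group in which these markers were highest, and mtl-1, mtl-2 and cdr-1 were lowest there. The part of these markers in the member values was not tested. With vit-5 RNAi replicate 1 and control replicate 1, the lowest in these markers, left out, mtl-1 and cdr-2 had log2 differences of 1.16 and 0.77, cdr-4 and cdr-1 had 0.36 and 0.22 in place of 0.57 and 0.36, and the other 4 members had 0.11 to 0.63.

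**Figure D5:**
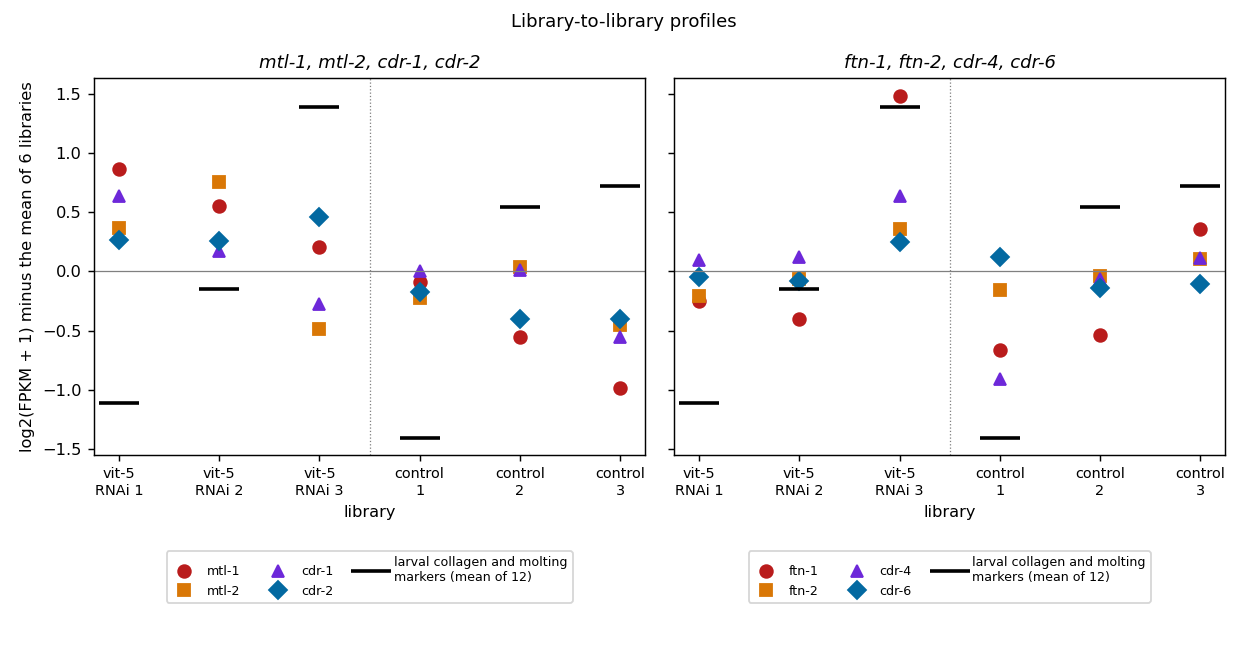
Centred log2(FPKM + 1) of the 8 genes in each library (symbols) with the mean of 12 larval collagen and molting markers (black bars), vit-5 RNAi libraries on the left of each panel and control libraries on the right. In replicate 3 of each group the black bars are high, at 1.39 and 0.73, and ftn-1 is at its group's highest value while mtl-1 and cdr-1 are at their lowest.

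Genes of zinc, iron, heme and copper handling gave 0 calls at an adjusted p of 0.05 in the same fit. The median log2 difference over all tested genes in that fit was 0.34. Of 19 tested genes for zinc transport and sensing, 10 had a log2 difference above 0, with a median of 0.02. The lowest p-values were those of cdf-1, a zinc exporter, at 12.01 ± 2.01 FPKM after vit-5 RNAi and 6.77 ± 1.85 FPKM in controls, and sur-7, a relative of it, at 13.9 ± 1.09 FPKM after vit-5 RNAi and 8.85 ± 1.55 FPKM in controls. The zinc-sensing nuclear receptor hizr-1 had 2.11, 2.92 and 3.18 FPKM after vit-5 RNAi, against 1.95, 1.29 and 1.11 FPKM in controls. Of 15 tested genes for iron and heme, 14 were above 0 with a median of 0.31, led by mrp-5, the intestinal heme exporter, at 9.34 ± 1.88 FPKM after vit-5 RNAi and 4.78 ± 1.23 FPKM in controls. Next was smf-1, a divalent metal transporter, at 9.03 ± 0.890 FPKM after vit-5 RNAi and 6.23 ± 0.406 FPKM in controls. Of 4 copper genes 3 were above 0 (median 0.28), with the copper chaperone cuc-1 at 220 ± 41.4 FPKM after vit-5 RNAi and 156 ± 26.4 FPKM in controls. The copper pump cua-1 had 13.5 ± 3.62 FPKM after vit-5 RNAi and 8.88 ± 2.26 FPKM in controls. For these genes errors are SD with n = 3 in each group, and the limma adjusted p-values were 0.123 to 0.228. After median-of-ratios scaling the 3 medians were -0.33, -0.05 and -0.07. On that scale 6 of 19 zinc, 2 of 15 iron and heme and 1 of 4 copper genes had an unadjusted limma p under 0.05. Of all 12908 tested genes 2750 did, in either direction. As deposited, 4 zinc, 2 iron and heme and 1 copper gene were separate and higher after vit-5 RNAi, against 30.8% of all tested genes. In the other direction, 1 zinc and 1 copper gene were separate and lower, against 3.15%.

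The 12 genes of heavy metal detoxification had a median log2 difference of 0.53, against 0.34 over all tested genes. Of the 12, 10 were above 0 and 6 were separate and higher after vit-5 RNAi, where 30.8% of all tested genes were separate and higher. As deposited, 5 of the 12 had an unadjusted limma p under 0.05, all higher, where 26.2% of all tested genes were higher. After median-of-ratios scaling the median was 0.30, and 0 of the 12 were under that level in either direction. Of the 12908 tested genes 2750 were under it on that scale, and 9.23% of all were under it and higher. The lowest p-values were those of the heat shock gene hsp-70, whose groups overlapped, at 13.6 ± 6.29 FPKM after vit-5 RNAi and 5.21 ± 1.34 FPKM in controls, and the ABC transporter mrp-1, at 6.22 ± 0.891 FPKM after vit-5 RNAi and 3.61 ± 0.397 FPKM in controls (SD, n = 3 each; limma adjusted p 0.133 and 0.136). The phytochelatin pathway, which chelates cadmium independently of metallothioneins, was uneven. Phytochelatin synthase pcs-1 had 12.99, 12.1 and 16.8 FPKM after vit-5 RNAi, against 10.1, 8.28 and 10.2 FPKM in controls. The ABC transporter hmt-1 had 30.6, 24.8 and 23.7 FPKM after vit-5 RNAi, against 30.1, 21.6 and 25.3 FPKM in controls. Of these 2 genes only pcs-1 was apart between the groups.

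Known regulators of these genes were all above 0, 13 of 13. Their median was 0.63, or 0.29 after median-of-ratios scaling, against 0.34 and 0.03 over all tested genes. The share of all tested genes above 0 was not computed. Of the regulators 8 were separate and higher after vit-5 RNAi, against 30.8% of all tested genes. At an unadjusted limma p under 0.05 the count was 8 as deposited, all higher, where 26.2% of all tested genes were higher. After scaling it was 0 in either direction. Of the 12908 tested genes 2750 were then under that level, and 9.23% of all were under it and higher. The lowest p-values were those of pqm-1, a zinc finger factor that acts opposite DAF-16, at 57.2 ± 8.16 FPKM after vit-5 RNAi and 33.9 ± 5.67 FPKM in controls, and the insulin receptor daf-2, at 6.89 ± 1.595 FPKM after vit-5 RNAi and 3.48 ± 1.29 FPKM in controls (limma adjusted p 0.122 and 0.133; SD, n = 3 each). The transcript of daf-16 had 28.4, 27.0 and 23.6 FPKM after vit-5 RNAi, against 22.8, 15.2 and 19.2 FPKM in controls. That of hif-1 had 58.7, 60.8 and 64.4 FPKM after vit-5 RNAi, against 52.2, 39.2 and 49.4 FPKM in controls. The intestinal GATA factor elt-2 had 15.1, 13.3 and 12.2 FPKM after vit-5 RNAi, against 11.2, 8.75 and 7.67 FPKM in controls. For all 3 factors the groups did not overlap and vit-5 RNAi was the higher, and the limma adjusted p-values were 0.196, 0.187 and 0.182. Their log2 differences of 0.46, 0.39 and 0.52 were 0.11, 0.03 and 0.19 after median-of-ratios scaling.

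Markers of tissues were read from the same fit, in which the median log2 difference over all tested genes was 0.34 (0.03 scaled). Of 11 intestine markers 10 were above 0 (median log2 difference 0.51, or 0.15 after median-of-ratios scaling), and their sum ranged from 5170 to 5792 FPKM after vit-5 RNAi and from 4632 to 5432 FPKM in controls. The gut esterase ges-1 averaged 26.2 ± 5.67 FPKM after vit-5 RNAi and 12.5 ± 3.18 FPKM in controls, and the sodium-proton exchanger nhx-2 11.4 ± 2.497 FPKM after vit-5 RNAi and 5.11 ± 2.29 FPKM in controls (SD, n = 3 each; limma adjusted p 0.122 for both). The 7 tested neuron markers had a median of 0.77 (0.58 scaled), 6 of them above 0, led by unc-13 and rab-3. All 8 listed neuron genes summed to 624 to 775 FPKM after vit-5 RNAi and 657 to 749 FPKM in controls. The 8 muscle markers had a median of 0.37 (0.02 scaled), 7 of them above 0, led by myo-1 and unc-22. Their sums ran from 1436 to 2952 FPKM after vit-5 RNAi and from 1501 to 2440 FPKM in controls. The 10 oocyte and germline markers had a median of -0.09 (-0.46 scaled), with 7 of them below 0. Their sums ran from 2496 to 4511 FPKM after vit-5 RNAi and from 3811 to 4947 FPKM in controls. At the lowest p-values, glp-1 and puf-5 went opposite ways, with log2 differences of 0.83 and -0.30. The larval collagen and molting list had a median of 0.28 (-0.05 scaled), with ptr-4 and sqt-3 at the lowest p-values. No marker passed an adjusted p of 0.05. After scaling, 5 of 7 neuron, 3 of 11 intestine and 3 of 10 oocyte and germline markers had an unadjusted limma p under 0.05. The count was 0 of 8 for muscle, 0 of 12 for the larval list and 2750 of all 12908 tested genes, in either direction. The part of tissue makeup in the member values was not tested.

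Genes with the most similar profiles over the 6 libraries were found by the root-mean-square difference of centred log2(FPKM + 1), as a description over few libraries. For mtl-1 they were cyp-25A2, a cytochrome P450 gene (difference 0.086), and C17H12.8 (0.11). The FPKM of C17H12.8 were 245, 203 and 144 after vit-5 RNAi and 108, 74.9 and 62.7 in controls. For cdr-2 they were nep-12 (0.025) and ssu-2 (0.041), and for cdr-6 the lipid-binding protein gene lbp-1 (0.044) and vha-20, named for the vacuolar proton pump (0.046). Those of ftn-1 were F13D11.3 and K01A6.7 (0.11 each), and those of ftn-2 were Y45F3A.8 and C39D10.8 (0.038 and 0.040). For cdr-4 they were abhd-5.2 (0.11) and F45D3.2 (0.12), for cdr-1 the homeobox gene mls-2 and K02B12.2 (0.11 each), and for mtl-2 the weakly expressed Y41D4A.3 (0.082) and C43H6.12 (0.15). Median differences over all protein-coding genes tested were 0.33 to 0.75.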

How the data were processed

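Total RNA of whole worms was sequenced in 6 libraries, made with the NEBNext Ultra kit per the labels' protocols. Per the file headers, the authors deposited an FPKM for each gene in each library, and most zeros were written as 0.0001 and read here as 0. HTSeq 0.6.1, DESeq 1.18.0, TopHat2 2.0.12, Bowtie2 2.2.3 and the build WBcel235 are named in the submitters' processing notes, without their roles. Neither the program that made the FPKM nor strandedness is stated in the sources used here.

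The 12908 genes reaching 1 FPKM in 3 or more libraries were tested on log2(FPKM + 1) with limma 3.58.1 in R 4.3.3, with group as the only term, a mean-variance trend and Benjamini-Hochberg adjustment over all of them (threshold 0.05). The pseudocount understates fold changes of low genes. Ratios and sums were compared by exact 2-sided permutation over libraries in scipy 1.17.1. The procedure was tested on simulated data first. Of the low values 34.7% to 36.8% were within 0.1 of a whole fragment, at the depth chosen to make these same values cluster most. The 20% by chance holds for a depth fixed beforehand, so it is not a like comparison. Counts were not recovered, depth is a rough estimate and no counting interval is given.

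Gene IDs were matched to a RefSeq table, and exons and neighbours to the Ensembl annotation, both of WBcel235. Of the iron list 18 of 19 genes were matched, of the remaining cdr genes 2 of 3, and all of the other lists. The members, lists and tests were chosen with earlier results of these data known. The text names the 8 members, vit-3 to vit-5, the remaining cdr genes, the genes of each list with the lowest p (2 per list), and the 2 closest profiles per member. Named for their role or place, with values seen, were daf-16, hif-1, elt-2, hizr-1, hmt-1, pcs-1, rol-6 and hrg-2. No 2 libraries were copies, since at most 0.0697% of tested genes had equal values in any pair. Alternatives were a pseudocount of 0.1, no filter, median-of-ratios and upper-quartile scaling, a replicate block and leaving out each library. Added after seeing the data were fits without the library of each group that had most ribosomal RNA, or least larval collagen.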

Additional observations from a re-analysis of the deposited data

How the results depend on the processing

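Over 13 alternatives for each of the 8 genes, 90 log2 differences kept their direction and stayed on the same side of the adjusted threshold, 11 turned negative and 3 passed. The values for mtl-1 (0.73 to 1.32), cdr-2 (0.30 to 0.77), cdr-4 (0.22 to 0.77), mtl-2 (0.06 to 0.90) and cdr-1 (0.06 to 0.68) stayed above 0 in all 13. After median-of-ratios and upper-quartile scaling ftn-2 was -0.30 and -0.22 and cdr-6 -0.28 and -0.20, since scaling removes the shared shift, and the summed ferritin difference became -82.7 FPKM under the first. Leaving out, in each group, the library with most ribosomal RNA gave -0.18, -0.11 and -0.077 for ftn-1, ftn-2 and cdr-6. Leaving out single libraries gave -0.048 to 0.90 for ftn-1, -0.11 to 0.18 for ftn-2, -0.026 to 0.16 for cdr-6 and -34.1 to 91.9 FPKM for summed ferritin, the lowest values being without vit-5 RNAi replicate 3, and ftn-2 was also below 0 without control replicate 1. The number of genes past the adjusted threshold was 0 to 5 over these, being 4 when vit-5 RNAi replicate 1 was left out, 5 when replicate 3 of that group was, and 2 without the library lowest in larval collagens of each group. The cause of these changes was not tested.

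With the replicate number as a block, 3806 genes passed, 3679 higher (28.5% of those tested) and 127 lower (0.984%). They included mtl-1 (1.09, limma adjusted p 0.00749), cdr-2 (0.66, 0.0145) and cdr-4 (0.57, 0.0376), so 3 of the 8 members, along with 8 regulators, 6 intestine, 5 heavy metal, 5 neuron, 4 muscle, 2 zinc, 2 copper, 1 iron and 1 germline gene. Labels do not say that numbers pair libraries. Deviations from the group means correlated at 0.75, 0.03 and 0.68 between same-numbered libraries. Between libraries of different numbers they correlated at -0.71 to 0.35, with 0.23 for vit-5 RNAi replicate 2 and control replicate 1. Deviations within a group of 3 libraries depend on each other, so these correlations cannot settle whether the numbers are pairs. The numbers were not treated as pairs because no label says so. The block gave a sign-flip p for the ratios that cannot go below 0.25 with 3 pairs. Exact depth is unknown, so counting error, which bears most on the scarce cdr-1, could not be given.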
